A study of Homo sapiens with 6 samples.

Results

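The nuclear-encoded subunits of the mitochondrial respiratory chain were examined in DU-145-DR/tet-MUC1shRNA cells. DU-145 is a human prostate carcinoma line, DU-145-DR was selected from it for resistance to docetaxel, and the tet-MUC1shRNA vector makes a hairpin RNA against MUC1 when doxycycline (DOX) is given. A gene was a member when its symbol named a subunit of complexes I to V by its stem (NDUFA, NDUFB, NDUFC, NDUFS or NDUFV plus a number, SDHA to SDHD, UQCR, COX4I, COX5 to COX8, or ATP5), was not a pseudogene symbol, and had at least 10 counts in each library. This rule found 76 members among the 28008 genes of the count table. RNA-Seq was performed on 3 cultures that received 0.1% DMSO (DOX-negative) and 3 that received DOX at 500 ng/ml for 7 days (DOX-positive), so all 6 libraries came from cells selected for docetaxel resistance and taken here as the same hairpin-carrying pool, selected with puromycin. The labels of the DOX-negative samples name only the resistance and those of the DOX-positive samples name only the hairpin. The columns of the tables also write the name of the resistant line differently from the sample titles, and they were tied to the samples by DOX state and replicate number. Without a DOX-treated library carrying a control hairpin among those analysed, MUC1 silencing and exposure to DOX cannot be told apart. No library with a different MUC1 hairpin was analysed either, so effects of this hairpin on other transcripts cannot be told apart from MUC1 silencing. Nothing in the labels says that the replicates were separate experiments, and p-values then measure only the spread between these libraries.

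The respiratory chain passes electrons from NADH (complex I) and from succinate (complex II) through coenzyme Q to complex III, from there through cytochrome c to complex IV and on to oxygen, and complex V uses the resulting proton gradient to make ATP. Its subunits come from both the nuclear and the mitochondrial genome, complex II excepted, which is wholly nuclear-encoded. Doxycycline, the inducer, is a tetracycline and such drugs can also inhibit translation on mitochondrial ribosomes. The count table held 0 of the mitochondrially encoded subunit genes, so these results cover only the nuclear share of each complex. The question addressed was whether transcripts of these subunits changed when MUC1-C, the transmembrane subunit of the MUC1 protein whose part in energy and redox balance of drug-resistant cells the study examined, was silenced.

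Many respiratory genes are known to be controlled by the nuclear respiratory factor NRF1 and by the ETS-family factor GABP, and their promoters were read for the letters of these sites. Promoter windows of 300 bases (250 before to 50 after the start of the gene) were taken from RefSeq on GRCh38.p14 and were matched for 61 of the 76 members. The core letters GCATGCG of the NRF1 site, on either strand, occurred in 13 of the 61 windows (21.3%) and in 4.13% of all 27305 promoter windows of the same length. The ETS letters CCGGAAG occurred in 19 member windows (31.1%, against 10.7% of all), the YY1 letters AAGATGG in 16 (26.2%, against 6.06%) and the E-box letters CACGTG in 7 (11.5%, against 7.43%). In the 18014 windows of genes in the count table the shares were 4.92% (NRF1), 13.1% (ETS), 6.34% (YY1) and 8.49% (E-box). The members are expressed genes, and windows of expressed genes alone were not counted. A window was counted once however often it held the letters, and the NRF1 letters of both orientations can overlap each other. The stretches around the NRF1 letters are shown for 6 of the members whose values are given below. Among these ATP5G2 was called lower and SDHD higher, while ATP5J, ATP5I, SDHB and NDUFB4 had changes below 0 that were not called. NDUFS6 (log2 fold change 0.20), NDUFS7 (0.21), ATP5C1 (0.07), NDUFA6 (0.03), COX6A1 (−0.0038), NDUFA8 (−0.02) and COX5B (−0.15) also had the letters. These members were not called and their stretches are left out. The stretches run 5′ to 3′ along the gene with the matched letters in capitals.
ATP5G2: ggcccgggtcaCGCATGCgctgagccttcc
ATP5J: cactcaaagagCGCATGCgtacagagcaag
ATP5I: gccgctgacggCGCATGCgtgcgcccagct
SDHD: agctgtgtttgCGCATGCgcgacgggtgtg
SDHB: aagccaaatggGCATGCGccgctactgcgc
NDUFB4: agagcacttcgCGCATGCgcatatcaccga
The ATP5G2 stretch lies on the minus strand at chr12:53676106-53676135 and the SDHD stretch on the plus strand at chr11:112086753-112086782, both upstream of the start. Of the 6 members that passed the test below, 2 had the NRF1 letters, ATP5G2 (lower) and SDHD (higher), and 2 had the ETS letters, COX6B1 (lower) and SDHD (higher). A match of letters is a description of the window and was not tested as a binding site.

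MUC1 itself was measured first, as a check of the labels. Its level was 21.3, 24.8 and 19.7 CPM in DOX-negative replicates 1 to 3 and 3.27, 3.87 and 4.44 CPM in DOX-positive replicates 1 to 3, where CPM are counts divided by the TMM-scaled size of their library. It fell by 2.52 on the log2 scale (95% interval −2.83 to −2.22, adjusted p = 4.47e-11, edgeR quasi-likelihood test with Benjamini-Hochberg adjustment). Library totals ranged from 15092691 to 23243713 counts, and the floor of 3 counts, which covers counting error only, corresponded to between 0.129 and 0.199 CPM. The 4 epithelial markers KRT8, KRT18, EPCAM and CDH1 all rose, and their summed level ran from 586.8 to 650.9 CPM in DOX-negative and from 1077 to 1165 CPM in DOX-positive libraries. Of 7 markers of leukocytes, endothelium and stroma, CD3E was at 0 in every library, PTPRC, PECAM1, VWF and PDGFRB had at most 6 counts in any library, COL1A1 was not called, and CD68, a lysosomal gene also expressed outside leukocytes, rose by 0.75 on the log2 scale (adjusted p = 8.39e-08, edgeR). The part of the epithelial change in the results below was not tested.

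The transcripts of the respiratory chain subunits differed little between DOX-positive and DOX-negative cells. Of the 76 members, 3 were lower (COX7B, COX6B1 and ATP5G2) and 3 were higher (NDUFV1, NDUFV3 and SDHD) at an adjusted p under 0.05 over the 14292 genes tested with edgeR, and 70 were not called. The called share was 3.95% in each direction, where 13.7% of all genes tested were lower and 13.0% were higher. At an unadjusted p under 0.05 there were 14 members (18.4%), against 37.9% of all genes tested. Without DOX-negative replicate 2, 6 members were lower and 3 higher, where 11.9% and 11.7% of all genes tested were called. The log2 fold changes of the members ran from −0.38 to 0.27, with 39 below and 37 above 0 and a median of −0.0044, against a 5th to 95th percentile of −0.65 to 0.59 and a median of −0.0034 over all genes tested. The 95% interval of the change lay within 0.5 of 0 on the log2 scale for 73 of the 76 members (96.1%) and for 55.7% of all genes tested. The same share was 95.1% of 82 cytosolic ribosomal protein genes and 92.2% of 77 mitochondrial ribosomal protein genes. Intervals narrow as counts rise, and the members were chosen with a count minimum. Their median level was 5.63 on the log2 CPM scale, against 4.51 over all genes tested. The median standard error was 0.0858 for the members and 0.106 over all genes tested, so these shares do not compare genes of like level. The values of the DOX-negative and DOX-positive libraries did not overlap for 19 members (25%), 10 higher and 9 lower, where 39.8% of all genes tested did not overlap.

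**Figure D1:**
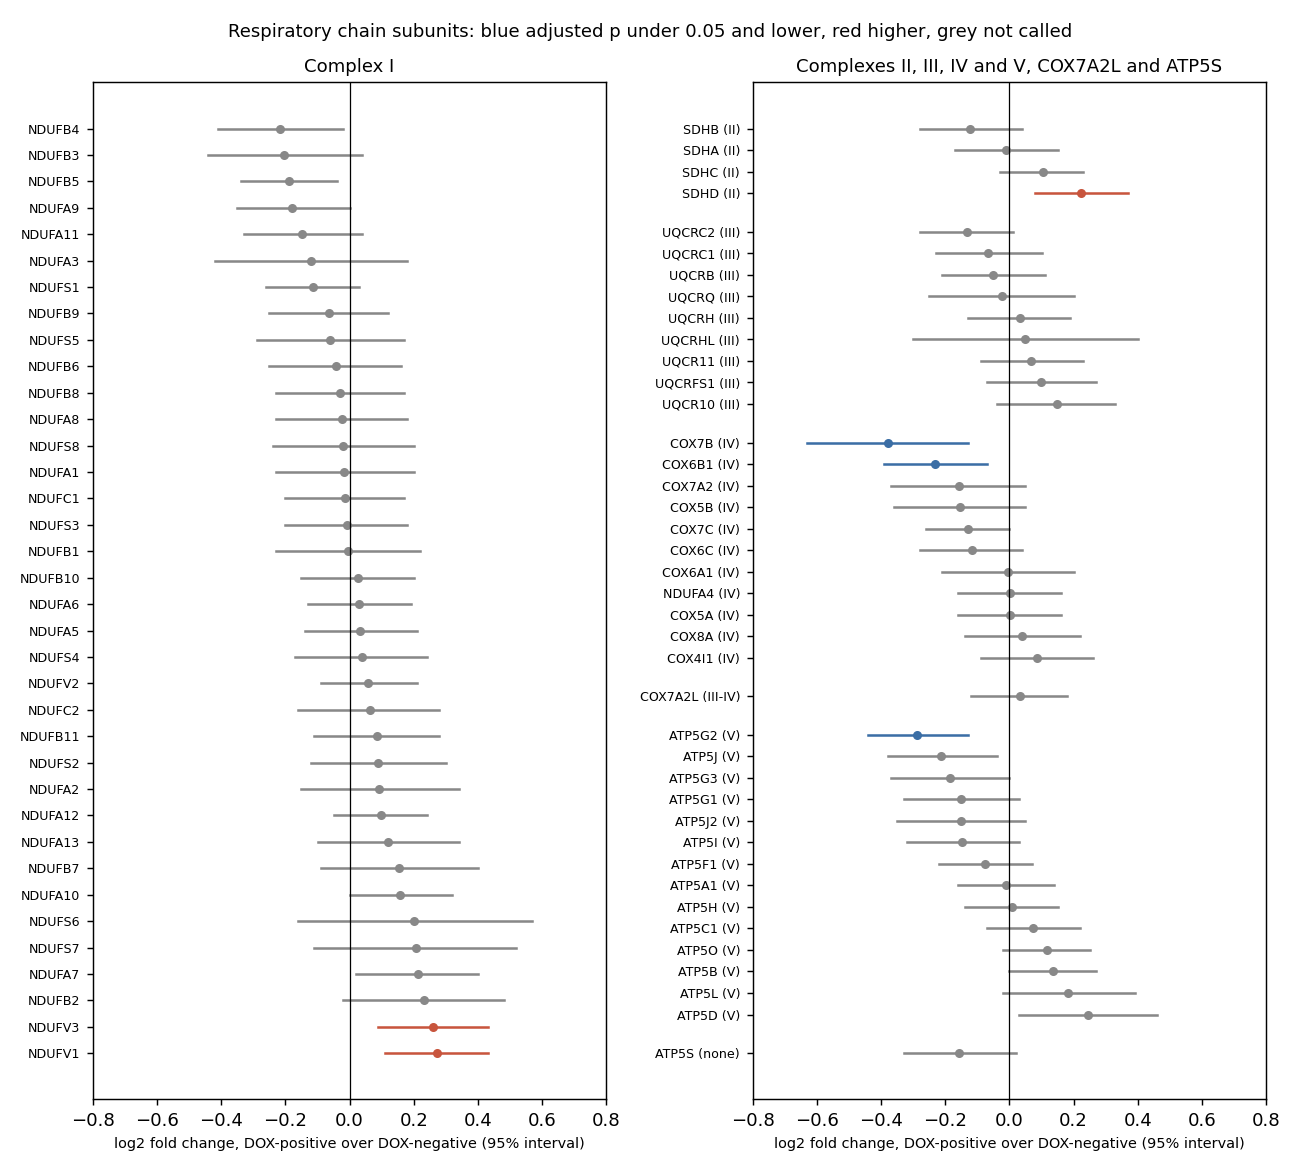
Log2 fold change (x axis, DOX-positive over DOX-negative, edgeR) of each of the 76 members with its 95% interval as a line, complex I on the left and the other complexes on the right with the complex in parentheses. All points lie between −0.38 and 0.27, the 3 blue members are lower and the 3 red members higher at an adjusted p under 0.05, and grey members were not called.

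The summed level of the members was 5285, 5241 and 5668 CPM in DOX-negative and 5573, 5324 and 5416 CPM in DOX-positive libraries, so the groups overlapped and the DOX-positive mean was 101% of the DOX-negative mean. Sums are weighted by abundant transcripts and by longer ones, since CPM is not divided by length. Because RNA was taken from whole cultures, fewer cells with a transcript and less of it per cell cannot be told apart. The summed levels of complexes I, III and V were 100%, 99.6% and 103% of their DOX-negative means. Complex II stood at 107% and complex IV at 95.3%, and each group's libraries overlapped the other's in both.

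**Figure D2:**
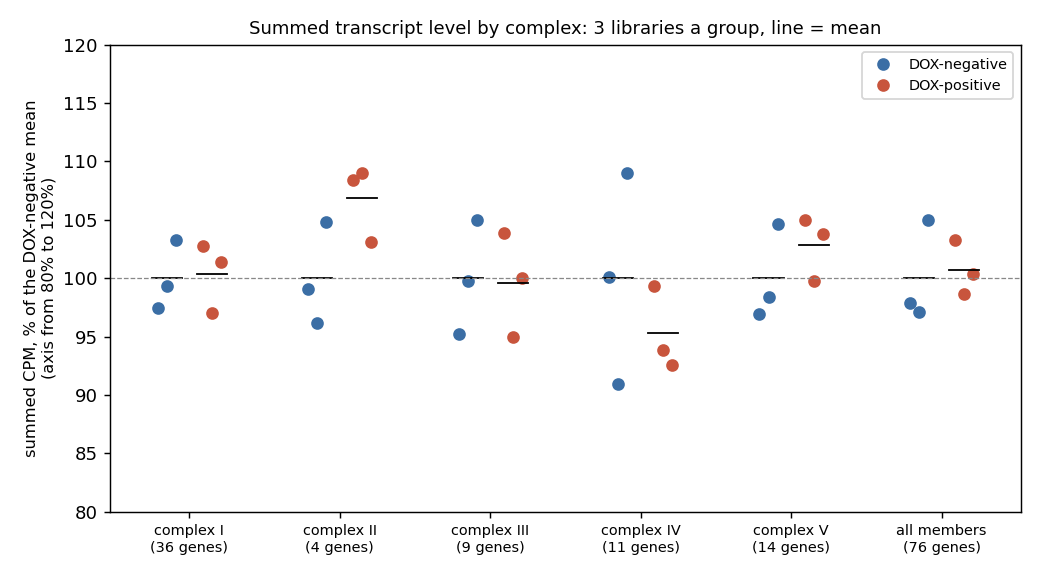
Summed TMM-scaled CPM of the members of each complex (y axis, as a percentage of the DOX-negative mean, from 80% to 120%), with 3 DOX-negative (blue) and 3 DOX-positive (red) libraries in order of replicate and a line at each mean. The means lie between 95.3% (complex IV) and 107% (complex II), and red and blue points overlap in every complex.

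Complex I, the NADH dehydrogenase, had 36 members, of which 0 were lower and 2 higher, with a median log2 fold change of 0.028 and a range from −0.22 to 0.27. Of all genes tested, 13.7% were lower and 13.0% higher. NDUFV1 and NDUFV3 rose. NDUFV1 binds NADH and the flavin cofactor where electrons enter the complex, and NDUFV2 and NDUFV3 sit beside it in the same module. NDUFV1 was at 61.8, 62.6 and 61.6 CPM in DOX-negative and at 82.4, 71.6 and 70.6 CPM in DOX-positive libraries, a log2 fold change of 0.27 (95% interval 0.11 to 0.43, adjusted p = 0.0106, edgeR). All 3 DOX-positive libraries lay above the DOX-negative ones, and without DOX-positive replicate 1, the highest, the value was 0.20 with an adjusted p of 0.0998. NDUFV3 was at 33.9, 37.4 and 35 CPM in DOX-negative and at 40.7, 43.3 and 43.2 CPM in DOX-positive libraries, a log2 fold change of 0.26 (0.09 to 0.43, adjusted p = 0.024, edgeR). The NDUFV3 libraries did not overlap, but its call was lost without DOX-negative replicate 1 (adjusted p = 0.113), DOX-negative replicate 3 (0.0661) or DOX-positive replicate 3 (0.0791). NDUFV2 was at 71.9, 70.4 and 78.2 CPM in DOX-negative and at 75.7, 74.8 and 79.1 CPM in DOX-positive libraries and was not called (log2 fold change 0.06, −0.09 to 0.21).

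The complex I members nearest to a call in the other direction belong mostly to the NDUFB stem, whose products sit in the membrane arm. NDUFB5 was at 172, 144 and 171 CPM in DOX-negative and at 137, 150 and 139 CPM in DOX-positive libraries (log2 fold change −0.19, −0.34 to −0.04, adjusted p = 0.0576, edgeR). DOX-negative replicate 2 lay among the DOX-positive libraries, and without it NDUFB5 was called lower (−0.27, adjusted p = 0.00688). Without DOX-positive replicate 2, NDUFB5 was called lower as well (−0.23, adjusted p = 0.0266) and NDUFB2 was called higher (0.34, adjusted p = 0.0347). NDUFB4 was at 32.4, 32.7 and 32.2 CPM in DOX-negative and 28.8, 24.7 and 30.4 CPM in DOX-positive libraries, with no overlap (−0.22, −0.41 to −0.02, adjusted p = 0.0939, edgeR). NDUFB3 was at 18.6, 18.3 and 20.2 CPM in DOX-negative and 17.2, 14 and 18.6 CPM in DOX-positive libraries (−0.20). NDUFA9, an accessory subunit near the site of coenzyme Q reduction, was at 67.5, 59.8 and 76.6 CPM against 59.7, 58.2 and 62.3 CPM (−0.18). The libraries of NDUFB3 and NDUFA9 overlapped between groups, and NDUFA9 was called lower without DOX-negative replicate 2 (−0.26, adjusted p = 0.0251, edgeR).

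Of the 11 NDUFB members 7 were below and 4 above 0 (median −0.031), of the 12 NDUFA members of complex I 5 were below and 7 above 0 (median 0.032), and of the 8 NDUFS members 4 were on either side (median 0.014). NDUFA7 was at 25.2, 23.6 and 24 CPM in DOX-negative and 27.8, 29.7 and 26.8 CPM in DOX-positive libraries, without overlap (0.21, 0.02 to 0.40, adjusted p = 0.095, edgeR). NDUFA10 was at 50.7, 53.5 and 55.3 CPM against 62.1, 57.4 and 58.4 CPM (0.16, adjusted p = 0.134, edgeR). NDUFA12, the complex I member with the highest deposited TPM (mean 312 over the 6 libraries), was at 76.3, 80.7 and 81.6 CPM against 83.1, 82.9 and 89.8 CPM (0.10, adjusted p = 0.33, edgeR). NDUFB1 was at 19.9, 24.6 and 20 CPM against 20.1, 20.7 and 23.7 CPM, a log2 fold change of −0.01 with an interval of −0.23 to 0.22.

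The NDUFS genes encode most of the iron-sulfur subunits that carry electrons through complex I, together with accessory subunits such as NDUFS6. Some NDUFS genes varied more between libraries of a group than between groups. NDUFS6 was at 9.14, 14.8 and 9.2 CPM in DOX-negative and 13.6, 9.72 and 15.1 CPM in DOX-positive libraries, and its interval (−0.16 to 0.57) was among the 2 in complex I that reached beyond 0.5. Without DOX-negative replicate 2, NDUFS6 was called higher (0.47, adjusted p = 0.0462, edgeR). NDUFS7 was the other (11, 15.3 and 12.9 CPM against 19, 12.7 and 13.2 CPM, −0.11 to 0.52). Both were lowest in DOX-negative replicate 1 and were raised in DOX-negative replicate 2 and in DOX-positive replicate 1. Their highest libraries differed, DOX-positive replicate 3 for NDUFS6 (15.1 CPM) and DOX-positive replicate 1 for NDUFS7 (19 CPM). NDUFS3, by contrast, lay between 25.1 and 25.6 CPM in all 6 libraries.

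Complex II, succinate dehydrogenase, joins the respiratory chain to the TCA cycle. Its membrane anchor subunits SDHC and SDHD, which hold the heme and the site of coenzyme Q reduction, had changes above 0, and its catalytic subunits SDHA (flavoprotein) and SDHB (iron-sulfur protein) had changes below 0. Only SDHD was called, and the change of SDHA (−0.01) turned above 0 in some fits that left out 1 library. SDHD was at 151, 133 and 154 CPM in DOX-negative and 164, 184 and 163 CPM in DOX-positive libraries, a log2 fold change of 0.22 (0.08 to 0.37, adjusted p = 0.0232, edgeR). Its groups did not overlap, and its call was lost without DOX-negative replicate 2 (adjusted p = 0.108), the lowest, or DOX-positive replicate 2 (0.0995), the highest.

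SDHC was at 196, 187 and 203 CPM in DOX-negative and 219, 209 and 202 CPM in DOX-positive libraries (0.10, −0.03 to 0.23, adjusted p = 0.235, edgeR), with DOX-positive replicate 3 inside the DOX-negative range. SDHB was at 60.4, 61.7 and 67.6 CPM against 59.3, 59.7 and 55.2 CPM (−0.12, −0.28 to 0.04, adjusted p = 0.254, edgeR). SDHA was at 73, 83.7 and 83.2 CPM against 83.2, 75.5 and 79.5 CPM (−0.01, −0.17 to 0.15). SDHB did not overlap between groups and SDHA did. The difference in change between the anchor and the catalytic subunits was not tested.

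Complex III, the cytochrome bc1 complex, had 9 members and 0 calls in either direction, with log2 fold changes from −0.13 to 0.15, a median of 0.031 and 0 members at an unadjusted p under 0.05. By DESeq2 it also had 0 calls. Of all genes tested with edgeR, 13.7% were lower and 13.0% higher, and 37.9% had an unadjusted p under 0.05. All 9 intervals lay within 0.5 of 0. The core proteins UQCRC2 and UQCRC1, which face the matrix, were at the lower end. UQCRC2 was at 85.4, 89.3 and 92.1 CPM in DOX-negative and 79.6, 79.4 and 84.8 CPM in DOX-positive libraries, without overlap (−0.13, −0.28 to 0.01, adjusted p = 0.174, edgeR). UQCRC1 was at 52.9, 56.5 and 60.4 CPM against 53.9, 52 and 56.3 CPM (−0.07). UQCRFS1, the Rieske iron-sulfur protein and the nuclear-encoded catalytic subunit of the rule, was at 47.1, 55.1 and 54.7 CPM against 59.2, 52.9 and 55.7 CPM (0.10, −0.07 to 0.27).

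The small accessory subunits UQCR10 and UQCR11 were at 28.3, 31.6 and 31.6 CPM and at 47.2, 50.8 and 47.1 CPM in DOX-negative libraries, in that order. In DOX-positive libraries UQCR10 was at 35.2, 34.4 and 31.7 CPM (0.15) and UQCR11 at 51.4, 49.6 and 50.9 CPM (0.07). UQCRB was at 84.8, 83.9 and 93.7 CPM against 89.7, 78 and 85.6 CPM (−0.05). UQCR10 did not overlap between groups, by less than 1 CPM, and the others overlapped. UQCRQ was at 22.3, 29.6 and 26.6 CPM against 28, 23.2 and 26 CPM (−0.02).

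UQCRH, the hinge protein that binds cytochrome c1, was at 108, 103 and 118 CPM against 123, 104 and 109 CPM (0.03, −0.13 to 0.19) and had the highest deposited TPM in complex III (mean 256). Its near-copy UQCRHL, whose principal transcript matched that of UQCRH at 505 of 516 aligned bases (97.9%), was at 5.94, 5.16 and 6.22 CPM against 5.45, 6.9 and 5.58 CPM (0.05, −0.30 to 0.40). How reads were shared between these genes is uncertain, so the UQCRHL values may be reads of UQCRH.

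Complex IV, cytochrome c oxidase, had the lowest median of the complexes (−0.12, 11 members, 7 below and 4 above 0), with 2 members lower and 0 higher. Of all genes tested, 13.7% were lower and 13.0% higher, and with 11 members these counts do not set the complex apart. Its catalytic core is mitochondrially encoded, and the members are the nuclear subunits around it. COX7B, a small membrane subunit needed for assembly of the complex, was at 16, 19.5 and 16.4 CPM in DOX-negative and 12.2, 13.2 and 14.7 CPM in DOX-positive libraries, a log2 fold change of −0.38 (−0.63 to −0.13, adjusted p = 0.0232, edgeR). The groups did not overlap, and this was the most negative value of the 76 members. Its call was lost without DOX-negative replicate 2, the highest (−0.28, adjusted p = 0.129), or DOX-positive replicate 1, the lowest (−0.31, adjusted p = 0.103).

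COX6B1, which bridges the monomers of the complex on the intermembrane side, was at 113, 104 and 123 CPM in DOX-negative and 106, 89.2 and 93.7 CPM in DOX-positive libraries, a log2 fold change of −0.23 (−0.39 to −0.07, adjusted p = 0.0312, edgeR). It was the called member whose groups overlapped, through DOX-negative replicate 2 and DOX-positive replicate 1. Its call was lost without DOX-negative replicate 1 (adjusted p = 0.0881), DOX-negative replicate 3 (0.158), DOX-positive replicate 2 (0.104) or DOX-positive replicate 3 (0.102), and kept in the other 2 such fits.

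COX7C, the member with the highest deposited TPM of all 76 (mean 1020), was at 112, 115 and 115 CPM in DOX-negative and 103, 102 and 107 CPM in DOX-positive libraries, without overlap (−0.13, −0.26 to 0.00, adjusted p = 0.144, edgeR). COX7A2, the ubiquitous partner of the muscle form COX7A1, was at 106, 82.4 and 123 CPM against 94.4, 98.3 and 86.1 CPM (−0.16, −0.37 to 0.05). COX6A1, the ubiquitous partner of the muscle form COX6A2, was at 217, 175 and 260 CPM against 228, 230 and 193 CPM (0.00, −0.21 to 0.20). Both of the last members were lowest in DOX-negative replicate 2 and highest in DOX-negative replicate 3, so their spread within the DOX-negative group exceeded the distance between the groups. Without DOX-negative replicate 2, COX7A2 was called lower (−0.30, adjusted p = 0.0107, edgeR).

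COX4I1, which carries a site at which ATP slows the enzyme, was at 78.9, 86.1 and 79.2 CPM in DOX-negative and 90.8, 73.4 and 94.9 CPM in DOX-positive libraries (0.08, −0.09 to 0.26). COX8A was at 51, 45.4 and 54 CPM against 56, 50.7 and 47.5 CPM (0.04). COX5A was at 45.1, 45.2 and 48 CPM against 47.9, 45 and 45.4 CPM (0.00, −0.16 to 0.16). NDUFA4, which is named for complex I and is a subunit of complex IV, was at 88.2, 77.6 and 88.2 CPM against 90.8, 77.9 and 85.4 CPM (0.00, −0.16 to 0.16). All 4 overlapped between groups.

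The tissue-restricted forms of complex IV subunits were not members because they failed the count minimum. COX4I2, COX6A2, COX7B2 and COX8C had 0 counts in all 6 libraries, COX7A1 had 1 count in 1 library, and COX6B2, a testis form, had between 1 and 11 counts. Of the ATP5 symbols, ATP5L2 had at most 3 counts and the readthrough ATP5J2-PTCD1 had 0 in all libraries. A count of 0 allows at most 0.199 CPM in the shallowest library. COX7A2L, a factor for supercomplexes of complexes III and IV that is named as a COX7A form, was at 107, 97 and 101 CPM in DOX-negative and 104, 111 and 95.8 CPM in DOX-positive libraries (0.03, −0.12 to 0.18).

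Complex V, the ATP synthase, had 14 members, of which 1 was lower and 0 higher, with a median of −0.044 and a range of −0.29 to 0.25. Of all genes tested, 13.7% were lower and 13.0% higher. ATP5G1, ATP5G2 and ATP5G3 encode the same mature c subunit, which forms the rotating proton-carrying ring, behind different import peptides, and all 3 had changes below 0. ATP5G2 was at 80.6, 80.6 and 90.3 CPM in DOX-negative and 71.7, 67.6 and 66.7 CPM in DOX-positive libraries, a log2 fold change of −0.29 (−0.44 to −0.13, adjusted p = 0.00571, edgeR). The groups did not overlap, and ATP5G2 alone among the 6 called members kept its call in every fit that left out 1 library (adjusted p from 0.00636 to 0.0429).

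ATP5G3 was at 44, 43.2 and 49.3 CPM in DOX-negative and 43.3, 36.3 and 40.4 CPM in DOX-positive libraries (−0.19, −0.37 to 0.00, adjusted p = 0.126, edgeR). ATP5G1 was at 44.3, 46.7 and 48.4 CPM against 46.8, 37.8 and 40.7 CPM (−0.15, −0.33 to 0.03, adjusted p = 0.222, edgeR). In both, DOX-positive replicate 1 lay within the DOX-negative range. Their transcripts were 80.4% to 89.1% identical where they aligned, and sharing of reads among them was not tested. The sum of the 3 genes was 168.9, 170.5 and 188 CPM in DOX-negative and 161.8, 141.7 and 147.8 CPM in DOX-positive libraries, without overlap, and the DOX-positive mean was 85.6% of the DOX-negative mean.

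The F1 head makes ATP, and of its 4 members 1 was below and 3 were above 0, with a median of 0.10. It had 0 calls by edgeR and 2 members at an unadjusted p under 0.05. The shares of all genes tested were 13.7% lower, 13.0% higher and 37.9% at an unadjusted p under 0.05. ATP5B, its catalytic beta subunit and the member with the highest CPM, was at 619, 668 and 687 CPM in DOX-negative and 744, 691 and 732 CPM in DOX-positive libraries (0.13, 0.00 to 0.27, adjusted p = 0.12, edgeR). ATP5D, the delta subunit of the central stalk, was at 16.1, 17.9 and 17.6 CPM against 20.1, 19.5 and 21.8 CPM (0.25, 0.03 to 0.46, adjusted p = 0.0867, edgeR). Both were higher in every DOX-positive library than in any DOX-negative one, where 39.8% of all genes tested did not overlap in either direction. ATP5E, the epsilon subunit of the same head, had 9, 11 and 21 counts in DOX-negative and 25, 8 and 16 counts in DOX-positive libraries and so was no member.

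The peripheral stalk holds the head still against the ring. ATP5J, its subunit F6, was at 64.8, 55.3 and 63.1 CPM in DOX-negative and 51.5, 50.6 and 56.3 CPM in DOX-positive libraries (−0.21, −0.38 to −0.04, adjusted p = 0.0589, edgeR). Only DOX-negative replicate 2 among the DOX-negative libraries lay within the DOX-positive range, and without it ATP5J was called lower (−0.28, adjusted p = 0.0195). ATP5O, the stalk's oligomycin sensitivity-conferring subunit, was at 230, 209 and 235 CPM against 253, 247 and 229 CPM (0.12, −0.02 to 0.25, adjusted p = 0.199, edgeR).

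The small membrane subunits e and g help the synthase to dimerise. ATP5I (subunit e), which had the highest deposited TPM of complex V (mean 682), was at 49.9, 46.4 and 55.7 CPM in DOX-negative and 46.4, 43.8 and 47 CPM in DOX-positive libraries (−0.15, −0.32 to 0.03). ATP5L (subunit g) was at 25, 28.3 and 27.3 CPM against 29.4, 27.7 and 34.7 CPM (0.18, −0.02 to 0.39). ATP5S, which begins with ATP5 but is no subunit and is now named DMAC2L, was at 89.7, 77.6 and 93.4 CPM against 72.8, 87.7 and 73.5 CPM (−0.16, −0.33 to 0.02), and was called lower without DOX-positive replicate 2 (−0.25, adjusted p = 0.0268, edgeR). All 3 overlapped between groups.

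**Figure D3:**
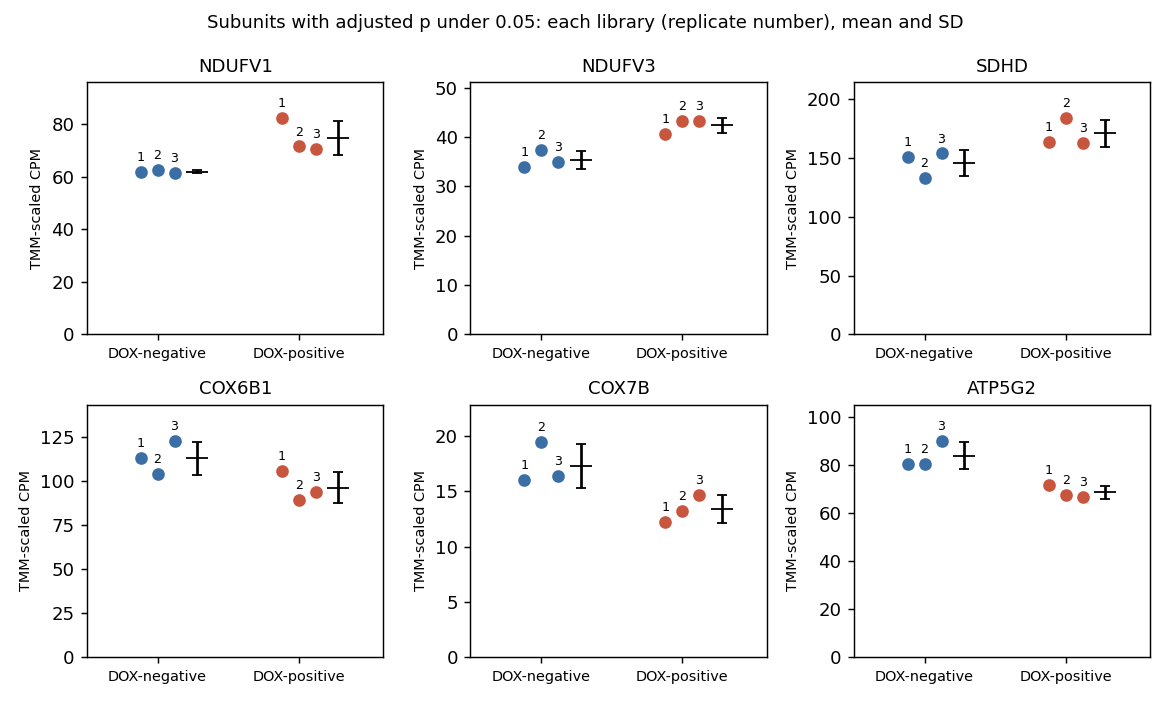
TMM-scaled CPM (y axis, from 0) of the 6 members with an adjusted p under 0.05 in each of 3 DOX-negative (blue) and 3 DOX-positive (red) libraries, numbered by replicate, with the mean and SD beside them. NDUFV1, NDUFV3 and SDHD are higher and COX7B and ATP5G2 lower in every DOX-positive library, and COX6B1 overlaps.

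Some shared properties of the members bear on how far their values can be read. On the principal transcripts of GENCODE 29, the members had a median GC content of 48.5%, against 48.9% over 13634 genes tested. Within a library, the deviation of the members from their group means correlated with GC content across the 76 genes, which are not independent replicates, at Pearson's r from −0.378 (DOX-positive replicate 2) to 0.536 (DOX-positive replicate 1). Over all genes with a GC value, r was −0.136 and 0.241 in these libraries, in that order. Its sign was that of the members in every library, so the trend was not particular to the members. When each library's trend with GC content and transcript length was removed, 7 members were lower and 3 higher, the median of complex I moved from 0.028 to −0.035, and all 6 calls above were among the 10, the added ones being the lower ATP5J, NDUFB4, NDUFB5 and SDHB. The shares of all genes called in that fit were 13.1% lower and 15.8% higher. Of the 76 members, 43 have at least 1 processed or other pseudogene named after them in GENCODE 29, and how reads shared with such copies were counted is not given in the sources used here.

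The factors that assemble the complexes lie outside the rule, except ATP5S, which is counted both as a member and among the complex V factors. The log2 fold changes of these factors ran from −0.45 to 0.45 for complex I and from −0.43 to 0.72 for complex IV. The lowest values were those of TMEM186 (complex I, 43 to 89 counts in a library) and PET100 (complex IV, 31 to 52 counts), and neither was called. Of 18 complex I assembly factors 2 were lower and 3 higher, against 13.7% and 13.0% of all genes tested. NDUFAF6 rose from 17.3, 18.2 and 19.2 CPM in DOX-negative to 24.9, 23.5 and 26.8 CPM in DOX-positive libraries (log2 fold change 0.45, adjusted p = 0.00172, edgeR) and kept its call without any 1 library. The calls of ECSIT (lower, −0.38), NDUFAF4 (lower, −0.28), NDUFAF1 (higher, 0.37) and FOXRED1 (higher, 0.39) were lost when single libraries were left out, with adjusted p up to 0.0744 for ECSIT without DOX-negative replicate 2, 0.174 for NDUFAF4 without DOX-negative replicate 1, 0.157 for NDUFAF1 without DOX-positive replicate 3 and 0.17 for FOXRED1 without DOX-negative replicate 1 (edgeR).

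Of 24 complex IV assembly factors 1 was lower and 3 were higher, against 13.7% and 13.0% of all genes tested. COX20, a chaperone for the mitochondrially encoded subunit COX2, was at 33.8, 31.2 and 34.9 CPM in DOX-negative and 53.9, 61.6 and 49.3 CPM in DOX-positive libraries (0.72, adjusted p = 3.25e-06, edgeR). COX18, which moves a domain of COX2 across the inner membrane, was at 14.1, 13.2 and 15.8 CPM against 20, 20.8 and 19.2 CPM (0.48, adjusted p = 0.00237, edgeR). Both were higher in every DOX-positive library and kept their calls without any 1 library. COA4 (higher, 0.26) and COA6 (lower, −0.28) lost theirs, with adjusted p of up to 0.159 without DOX-negative replicate 1 for COA4 and 0.164 without DOX-negative replicate 3 for COA6 (edgeR). Of 4, 6 and 4 assembly factors of complexes II, III and V, 0 were called in either direction by edgeR, and 1, 1 and 0 of them had an unadjusted p under 0.05. The share with such a p was 37.9% over all genes tested.

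The carriers that feed or link the complexes included a call in each direction. CYCS, cytochrome c, the carrier between complexes III and IV, was at 402, 354 and 404 CPM in DOX-negative and 327, 312 and 332 CPM in DOX-positive libraries (−0.26, −0.39 to −0.12, adjusted p = 0.00515, edgeR). SQOR, which passes electrons from sulfide to coenzyme Q, was at 73.2, 73.7 and 75.1 CPM against 122, 121 and 123 CPM (0.72, 0.58 to 0.85, adjusted p = 4.07e-08, edgeR). Neither overlapped between groups, and both kept their calls without any 1 library. CYC1, the cytochrome c1 of complex III (0.12, −0.05 to 0.30), NDUFAB1, the acyl carrier subunit of complex I (−0.11, −0.31 to 0.09), and NDUFA4L2, a paralog of NDUFA4 with 18 to 48 counts in a library (0.59, −0.14 to 1.31), were not called. The 12 genes of this list held 1 lower and 1 higher call in all, against 13.7% and 13.0% of all genes tested.

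Of 18 genes of the TCA cycle and pyruvate dehydrogenase 0 were lower and 3 higher, against 13.7% and 13.0% of all genes tested. Among the higher ones were OGDH (0.19) and DLAT (0.18), which encode subunits of the oxoglutarate and pyruvate dehydrogenase complexes. DLAT lost its call in all 6 fits that left out 1 library (adjusted p from 0.0645 to 0.0989) and OGDH in 5 of them, the exception being the fit without DOX-positive replicate 3 (adjusted p from 0.0312 to 0.151). 

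Of 12 regulators of respiratory genes that were tested 2 were lower and 0 higher, against 13.7% and 13.0% of all genes tested. PPARGC1B, a coactivator of NRF1 and of estrogen-related receptors, fell from 26.3, 28 and 30 CPM in DOX-negative to 17.5, 20.4 and 18.2 CPM in DOX-positive libraries (−0.59, adjusted p = 0.000149, edgeR). TFB2M, a mitochondrial transcription factor, was also lower (−0.25), and kept its call only without DOX-positive replicate 3, with an adjusted p of up to 0.163 in the other 5 such fits (without DOX-positive replicate 1). NRF1 (0.13, −0.12 to 0.38), ESRRA (0.06, −0.14 to 0.27) and TFAM (0.08, −0.08 to 0.24) were not called. 

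Of 11 mitochondrial antioxidant enzymes 2 were lower and 4 higher, against 13.7% and 13.0% of all genes tested. GSR, glutathione reductase, was at 320, 338 and 319 CPM in DOX-negative and 239, 223 and 239 CPM in DOX-positive libraries (−0.48, adjusted p = 4.66e-06, edgeR), and NNT, which makes mitochondrial NADPH, changed by the same −0.48 (adjusted p = 6.84e-06, edgeR). SOD2, the superoxide dismutase of the matrix, was at 121, 133 and 133 CPM against 159, 174 and 160 CPM (0.35, adjusted p = 0.000457, edgeR). GLRX2, a glutaredoxin, was also higher (0.46, adjusted p = 0.00212, edgeR), and these 4 kept their calls without any 1 library. PRDX5, a peroxiredoxin, was higher (0.30) but lost its call in 4 of 6 such fits, with an adjusted p of up to 0.121 without DOX-negative replicate 1.

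The mitochondrial ribosomal proteins, which make the mitochondrially encoded subunits, had 5 lower and 4 higher calls among 77 tested and a median of 0.035. MRPL42 was at 267, 222 and 280 CPM in DOX-negative and 153, 168 and 146 CPM in DOX-positive libraries (−0.72, adjusted p = 4.7e-07, edgeR). MRPL17 (−0.45) and MRPS35 (−0.34) were also lower, and MRPL30 (0.27), MRPL15 (0.27) and MRPL49 (0.23) were higher. MRPL15 lost its call without DOX-positive replicate 3 (adjusted p = 0.0562), and MRPL49 in 4 of 6 fits without 1 library (adjusted p up to 0.127, without DOX-negative replicate 1). The cytosolic ribosomal proteins had 9 lower and 2 higher calls among 82 tested and a median of −0.042. RPSA (−0.37), RPL7 (−0.31) and RPL27 (−0.22) were among the lower, RPL27 losing its call without DOX-positive replicate 1 (adjusted p = 0.0566), and RPS27L (0.44) and RPL15 (0.21) were the higher ones. In each of these 2 lists the called share, as for the subunits, was below the 13.7% lower and 13.0% higher of all genes tested.

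**Figure D4:**
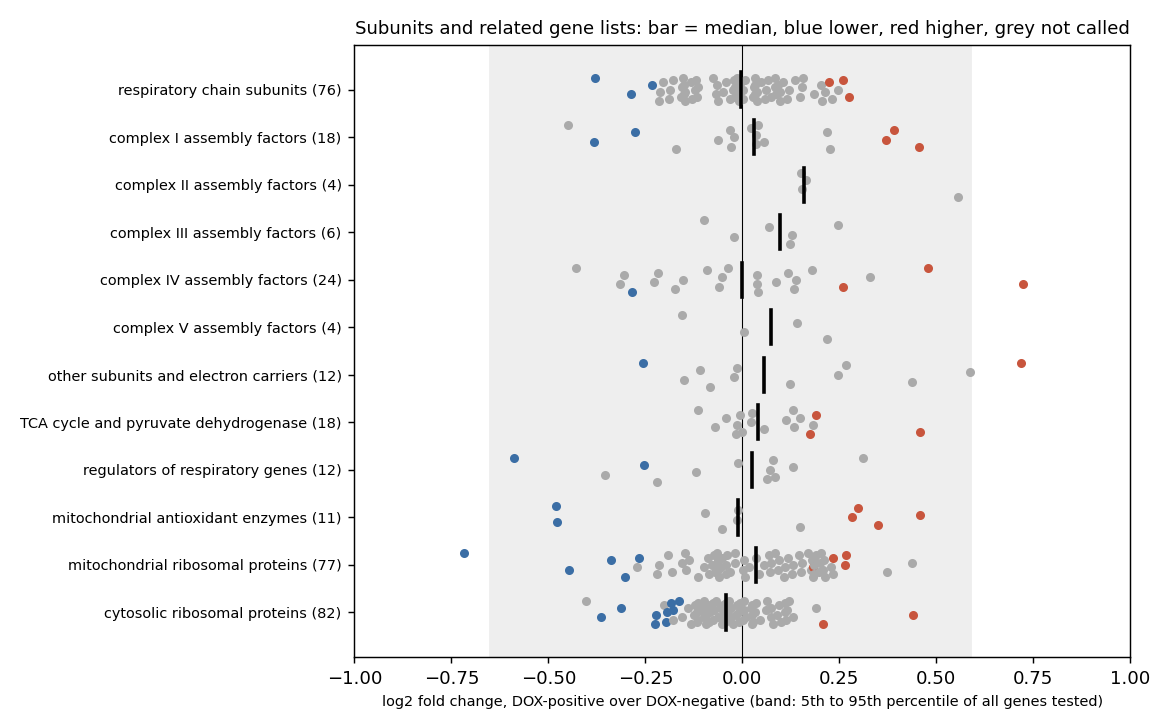
Log2 fold change (x axis, DOX-positive over DOX-negative) of each gene of the 76 subunits and of 11 related lists, with the number of genes tested in parentheses, a black bar at each median, blue for lower and red for higher calls and a grey band from the 5th to the 95th percentile of all genes tested (−0.65 to 0.59). All subunits lie inside the band, while MRPL42 lies below it and COX20 and SQOR above it.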

How the data were processed

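Expression was compared between 3 DOX-negative and 3 DOX-positive libraries, grouped and numbered from the sample titles, made by the authors with the TruSeq Stranded mRNA kit. The authors deposited whole-number counts for 28008 genes and TPM values for 25546 genes. The submitters' processing notes name STAR, DESeq2 and GRCh38; versions, annotation and use of strand are not given in the sources used here. The RNAs RPPH1, RN7SK, RN7SL1, RN7SL2 and RN7SL3, which are short and noncoding, held 34.4% to 64.4% of the deposited TPM of a library, so TPM served only to rank levels between genes and as an alternative. The authors' transcript lengths behind TPM are not stated.

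Counts were tested in R 4.3.3 with edgeR 4.0.16 (filterByExpr, TMM, glmQLFit and glmQLFTest, two-sided, group as the only term), with Benjamini-Hochberg adjustment over 14292 genes and a threshold of 0.05. The standard error behind each 95% interval was the absolute log2 fold change over the square root of F. Older symbols were matched through the RefSeq and gene name tables.

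The members and lists were chosen with earlier results of these data known. Named were, in each complex, up to 4 members a direction with the smallest adjusted p, the member with the highest mean TPM, all of complex II, paralogs, the 4 members closest to 0, and up to 3 called genes a direction from each related list, with CYC1, CYCS, NDUFAB1, PPARGC1A (not tested, too few counts), NRF1, TFAM, ESRRA, NDUFA4L2 and SOD2. Some genes that this rule names are not reported here. NDUFV2, NDUFB2, NDUFS3, NDUFS6, NDUFS7, ATP5C1, COX5B, NDUFA6, NDUFA8, TMEM186 and PET100 were named after their values were seen. Alternatives were DESeq2 1.42.0, RLE factors, library totals only, no filter, thinned counts, a replicate block, a filter of 10 counts in every library, limma 3.58.1 on log2(TPM + 1) as deposited and rescaled without the short noncoding RNAs, a GC and length correction (features for 95.4% of genes tested), membership without UQCRHL and ATP5S, and each library left out in turn. No pair of replicates agreed within sampling noise (chi-square per degree of freedom from 3.78 to 20.2), so none was merged.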

Additional observations from a re-analysis of the deposited data

How the results depend on the processing

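The 6 calls among the subunits and their directions were kept by DESeq2 and with RLE factors, no filter, a filter of 10 counts in every library, thinned counts and the GC and length correction. NDUFB5 was called lower as well with no filter (adjusted p = 0.0383, edgeR) and with the filter of 10 counts (0.0499). With library totals only 5 members were lower, NDUFB5 (adjusted p = 0.0209, edgeR) and ATP5J (0.0261) among them, and NDUFV3 was not called (adjusted p = 0.0538). Correction for GC content and length gave 7 lower calls and turned the median of complex I to −0.0348. On rescaled TPM 1 member was lower and 0 were higher, and on deposited TPM 0 were called in either direction by limma, as were 0 of all genes. Deposited TPM shifted the median of all genes by −0.318 on the log2 scale, and relative to that shift the medians were −0.0397 for complex I, −0.0213 for complex II and −0.112 for complex V, and MUC1 was at −2.16. The adjusted p of MUC1 on deposited TPM (0.112, limma) belongs to its change with that shift still included. Leaving out 1 library gave between 2 and 6 lower calls, with 6 without DOX-negative replicate 2. The replicate numbers were not treated as pairs, since same-numbered libraries correlated in their deviations at −0.0457, −0.123 and −0.0318, and the replicate block left 3 lower and 2 higher members, SDHD at 0.224 with an adjusted p of 0.0626.

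Of 81 single genes compared, 13 changed direction under some alternative, all uncalled, with a log2 fold change of at most 0.066 in size as reported, and 0 of them were called in the other direction. Their values were 0.0012 (DESeq2) and 0.00123 (replicate block) for NDUFB1; −0.00257 and −0.0431 for UQCRH, −0.0333 and −0.0699 for COX5A, −0.0331 and −0.0683 for NDUFA4 and −0.00206 and −0.0378 for COX7A2L (library totals only and deposited TPM); and −0.00257 for COX5A and −0.00269 for NDUFA4 with 10 counts in every library. COX6A1 was at 0.0103 with the replicate block and 0.0116 with thinned counts, which gave −0.0482 for COX5A and −0.0708 for UQCRHL. Deposited TPM gave −0.00258 for UQCR11, −0.034 for COX8A and −0.0142 for UQCRHL, and rescaled TPM −0.0222 for COX5A and −0.024 for NDUFA4. The GC and length correction gave 0.0146 for SDHA, 0.0053 for UQCRB, −0.0478 for UQCRH, −0.0692 for COX5A, −0.00438 for NDUFA4 and −0.034 for COX7A2L. With 1 library left out, values ranged from −0.028 to 0.0325 for COX5A, −0.0714 to 0.0248 for SDHA, −0.124 to 0.075 for UQCRQ, −0.0415 to 0.0917 for UQCRH, −0.0285 to 0.0969 for COX8A, −0.0569 to 0.0581 for NDUFA4, −0.0693 to 0.119 for UQCRHL, −0.075 to 0.107 for NDUFB1, −0.097 to 0.00359 for UQCRB, −0.137 to 0.147 for COX6A1, −0.021 to 0.0864 for COX7A2L and −0.0139 to 0.116 for ESRRA. The causes were not tested, beyond what each alternative itself changes. Across the 81 genes and all alternatives 1095 values kept direction and side of the threshold, 135 fell short of it, 13 newly passed it and 53 changed direction.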
